A study of Mus musculus with 21 samples.

Results

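This report describes 56 array probes of 40 genes named for potassium (Kcn), sodium (Scn) or calcium (Cacn) channels, of 256 such probes of 124 genes and 45281 probes in all. A probe was taken where its detection p-value was under 0.01 on every array of at least 1 of 6 mouse cell lines, so members were chosen by their detection p-values, and levels against background are descriptions. Of the channel probes 21.9% met this rule, against 45.8% of all probes with 1 gene symbol. Of the 200 that did not, 177 were above background on no array and 23 on some. The nearest probe inside the threshold was one of Kcnma1, whose highest detection p-value in iNS3 was 0.00748, and the nearest outside were 3 probes at 0.01709. Because 21 of the 40 genes also had 35 probes that did not pass, what is shown for a gene holds for the named probes.

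Ion channels are membrane proteins that let selected ions cross when voltage, calcium, stretch or acidity opens them. Pore-forming alpha subunits decide which ion passes, and auxiliary subunits set how many channels reach the surface and how quickly they open and close. Potassium channels hold the resting potential and end action potentials in neurons. In dividing progenitors, which do not fire trains of action potentials, potassium channels are known for setting the membrane potential and cell volume, and calcium channels for admitting calcium.

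The lines were iNS2 (3 arrays), iNS3 (4 arrays) and iNS5 (4 arrays), which are clones numbered 2, 3 and 5 of neural stem cells induced from Oct4-GiP mouse embryonic fibroblasts, which carry an Oct4-GFP reporter, followed by NS (3 arrays), neural stem cells from primary mouse forebrain cells, ES (3 arrays), embryonic stem cells, and MEF (4 arrays), the reporter fibroblasts. For ES, the source label names the same fibroblasts as for MEF, so the title and state labels were followed. By the series' own account, a line's arrays are technical replicates, so p-values between lines measure technical spread, and each line is 1 culture as far as the labels say. The series title names direct conversion of fibroblasts into neural stem cells, and MEF was the reference of its comparisons.

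Levels are log2 intensities after background correction and quantile normalisation, and the dimmest probe above background lay between 5.29 and 5.65 depending on the array. Between 14407 and 16021 probes per array were above background, and within each line the lowest correlation between arrays was 0.991 across probes, which are not independent replicates. All 5 fibroblast markers were above background on every MEF array and on no array of iNS2, iNS3, iNS5 or NS. In ES, 1 of the 5 (Thy1) was above background on every array. All 4 embryonic stem markers were above background on every ES array, and 1 of them (Dppa5a) also on every iNS5 and NS array. All 5 neural stem markers were above background on every clone and NS array, against 3 of 5 in ES and 1 of 5 in MEF. Of 5 neuron markers, Tubb3 and Snap25 were above background on no array of any line, and 1 (Syt1) was above background on every array of a line, iNS2. Of 4 astrocyte markers, 0 in iNS2, 2 in iNS3, 2 in iNS5, 1 in NS, 1 in ES and 0 in MEF were above background on all arrays. Of 3 oligodendrocyte lineage markers, Cspg4 alone was above background on all arrays of iNS2, iNS3, iNS5 and NS, while MEF had 2 and ES 0. Endothelial and blood markers were above background on no array of the clones or NS. In ES, 1 of 3 endothelial markers (Pecam1) and 1 of 2 blood markers (Laptm5) were above background on every array. In MEF, 1 of 2 blood markers (Laptm5) was.

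Of the 56 channel probes, 31 were above background on every iNS2 array, 36 in iNS3, 30 in iNS5, 27 in NS, 20 in ES and 23 in MEF. The largest pattern, 12 probes of 10 genes, was above background in all 3 clones and NS and on not all arrays of ES or MEF: Kcna2, Kcna6, Kcnc1, Kcnd2, Kcnh2, Kcnip3, Kcnj16, Kcnmb4, Cacng4 and Cacng5. A second set of 9 probes of 6 genes passed through MEF alone (Kcnab1, Kcne4, Kcnj15, Kcnmb1, Cacna1g and Cacna2d3), and 5 probes passed through ES alone (Kcnh3, Kcnj12, Kcnk6, Cacna1a and Cacnb1). No line had a probe of a voltage-gated sodium channel subunit above background on all its arrays: 24 probes of 10 such genes were measured, 21 of them were above background on no array, and the best reached 11 arrays. The 2 Scn-prefixed members are probes of Scnm1, a splicing factor.

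**Figure D1:**
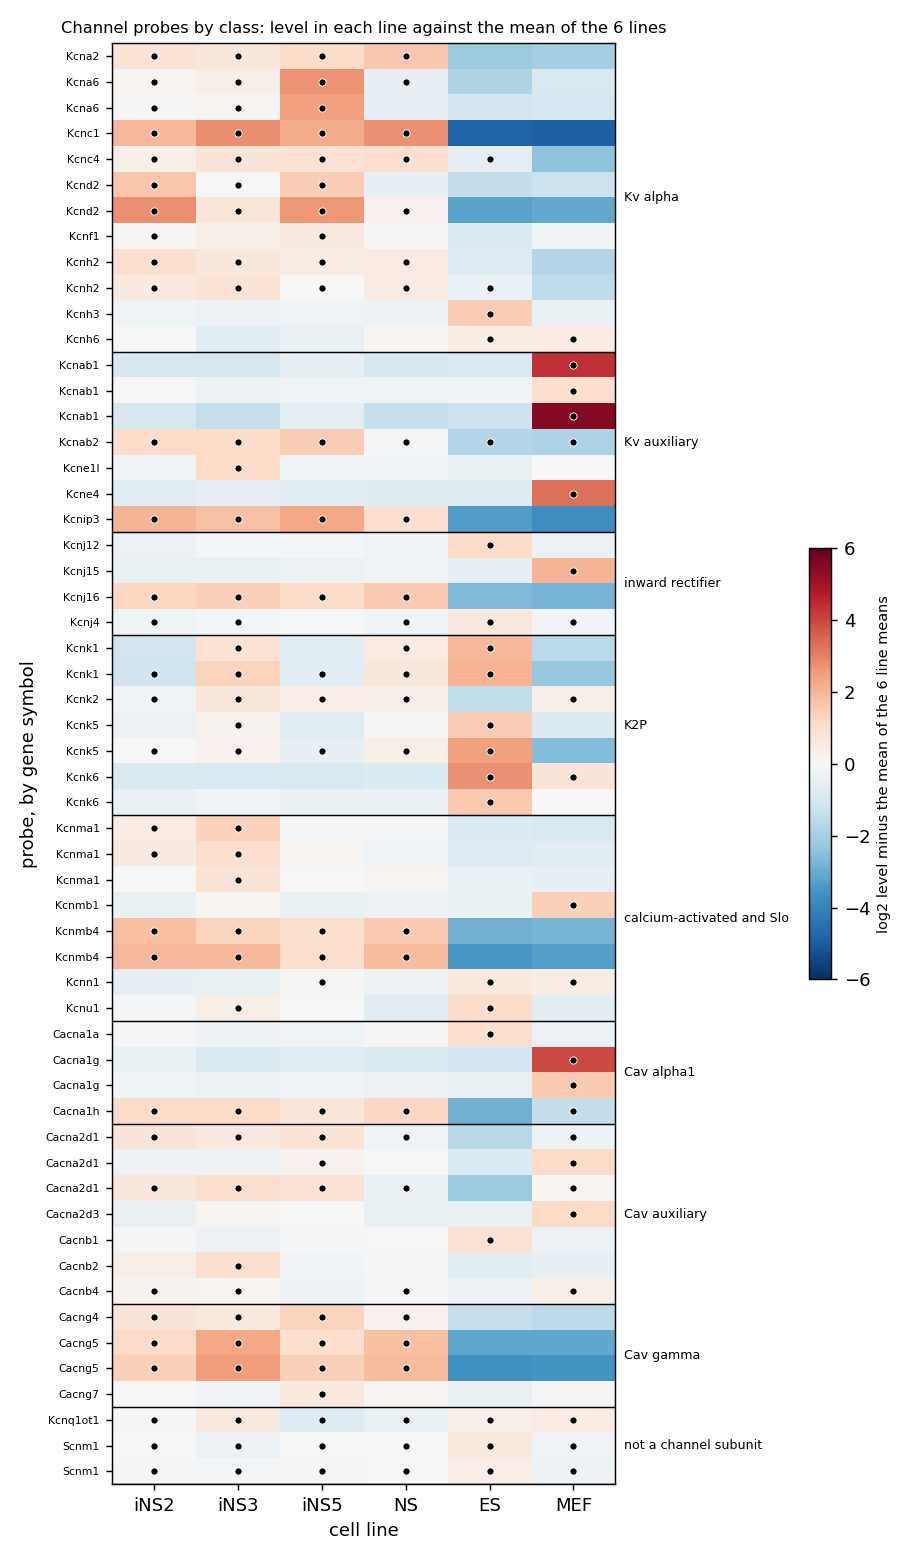
Each row is 1 channel probe, ordered by class, and each column a cell line; colour gives the line's mean log2 level minus the mean of the 6 line means, and a dot marks a line where the probe was above background on all arrays. The Kcnc1, Kcnip3, Kcnj16, Kcnmb4 and Cacng5 rows are red with dots in the clones and NS, the Kcnab1, Kcne4 and Cacna1g rows in MEF, and 6 of 7 two-pore (K2P) rows in ES.

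The clones were set against MEF, the line they came from, with the 3 clones as replicates and limma's eBayes test. MEF entered as 1 line and was assumed to vary like the clones, so its own spread between cultures was not measured. Of 56 probes 17 were called higher and 11 lower at an adjusted p under 0.05, against 22.4% higher and 21% lower of all 15971 probes tested (43.3% in all). Their median log2 difference was 0.63, and that of all tested probes 0.14. Of these 28 calls, 9 lower ones passed the detection rule through MEF alone, which favoured a difference, so they carry no p-value below. In these bulk samples, fewer cells of a type and less RNA per cell cannot be told apart. Without iNS2, 22 probes were called, and the share of all probes called was 20%, against 43.3% with all 3 clones. The calls of Kcnh2 ILMN_3123864, Cacna2d1 ILMN_1215110 and ILMN_2568719, Cacna2d3, Kcnmb1 and Kcnab1 ILMN_2618169 were lost, the last 3 of these among the probes that passed through MEF alone. Slide 4, the only slide with clones and MEF, holds 1 array each of iNS3, iNS5 and MEF and none of iNS2. Within it the spread came from the 2 clones alone and the lone MEF array was assumed to vary like them, so no count is given.

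Between NS and MEF, 18 probes were called higher and 9 lower by limma's treat against a 2-fold change, against 16.4% and 15.8% of all probes (32.2% in all). Of the 9 lower calls, 8 passed the detection rule through MEF alone, so the lower count is not read against that share. Within slide 4, 1 MEF array was assumed to vary like the 3 NS arrays, which supply the spread, so no count is given. Between ES and MEF, 11 were called higher and 13 lower, against 21.9% and 21.2% (43% in all). Of these, 4 higher and 8 lower calls passed the rule through ES alone or MEF alone, so neither count is read against its share. Between NS and ES 17 were called higher and 8 lower, against 15.5% and 13.7% (29.2% in all), and 2 of the lower calls passed through ES alone. ES shared no slide with NS or MEF, so slide and line can be separated there only through iNS5. With slide as a fixed block, 17 were called between ES and MEF (34.5% of all probes) and 18 between NS and ES (24.4%). These comparisons share the MEF or ES arrays.

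The voltage-gated potassium (Kv) alpha subunits form the pore of channels that open on depolarisation, and 9 genes with 12 probes met the detection rule. In the clones 6 probes of 5 genes were called higher than in MEF and 0 lower, against 22.4% and 21% of all probes. The median log2 difference was 2.16. The same counts held for NS against MEF, where 16.4% and 15.8% of all probes were called. Kcnc1, a fast-opening subunit of rapidly firing neurons, had the largest difference of all members. Its probe ILMN_2717814 read 11.39, 11.54 and 11.41 on the iNS2 arrays, 12.22, 12.34, 12.32 and 12.41 on iNS3 and 11.75, 11.71, 11.84 and 11.71 on iNS5. The same probe read 12.35, 12.22 and 12.28 on the NS arrays, 4.80, 4.59 and 4.72 on ES and 4.52, 4.44, 4.88 and 4.62 on MEF. All 14 clone and NS arrays lay far above all ES and MEF arrays, none of which was above background. Another Kcnc1 probe, ILMN_1239595, did not pass and was above background on 1 array, so the folds given here are those of ILMN_2717814. Kcnc1 was at least 77.4-fold higher in clones than in MEF (log2 difference 7.22 ± 0.39 SE, limma adjusted p = 0.00102) and at least 105-fold higher in NS (log2 difference 7.66 ± 0.09 SE, limma adjusted p = 4.22e-22).

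Kcnd2 encodes a subunit of the fast, inactivating A-type current. Its probe ILMN_2644229 read 10.43, 10.36 and 10.56 on the iNS2 arrays, 8.50, 8.56, 8.60 and 8.09 on iNS3 and 10.32, 10.17, 10.33 and 10.40 on iNS5. That probe read 7.97, 8.08 and 7.82 on the NS arrays, 4.53, 4.45 and 4.50 on ES and 4.60, 4.52, 4.87 and 4.50 on MEF. The iNS2 and iNS5 arrays overlapped, all iNS3 arrays lay below them and all NS arrays lower still, and no ES or MEF array was above background. Kcnd2 was at least 17.9-fold higher in clones than in MEF (log2 difference 5.11 ± 0.91 SE, limma adjusted p = 0.0157). On the authors' scaled table its limma adjusted p was 0.0502, and the call was lost. A second probe, ILMN_2625435, read 7.46, 7.59 and 7.72 on the iNS2 arrays, 5.99, 5.87, 5.91 and 5.92 on iNS3 and 7.59, 7.38, 7.38 and 7.28 on iNS5, and read 5.62, 5.13 and 5.56 on the NS arrays, 4.51, 4.53 and 4.43 on ES and 4.48, 4.63, 4.68 and 4.76 on MEF. It showed the same order of clones and was above background on 2 of 3 NS arrays.

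The stretches around the annotated starts of Kcnc1 and Kcnd2 are shown because both genes were above background in the neural lines and not in ES or MEF. They are RefSeq windows of 300 bases on GRCm38.p6, 250 before the start to 50 after it, which were found for 32 of the 40 genes. Capitals mark GGGCGG on either strand, the GC box bound by Sp1. Kcnc1 lies on the plus strand at chr7:46396218-46396517, with 74.7% G and C, 41 CpG pairs and 3 GC boxes, and Kcnd2 on the plus strand at chr6:21215096-21215395, with 68.7%, 26 CpG pairs and 1 box. The medians of all 32851 windows were 52.7% and 7 CpG pairs, and 35.7% of all windows held GGGCGG.
Kcnc1: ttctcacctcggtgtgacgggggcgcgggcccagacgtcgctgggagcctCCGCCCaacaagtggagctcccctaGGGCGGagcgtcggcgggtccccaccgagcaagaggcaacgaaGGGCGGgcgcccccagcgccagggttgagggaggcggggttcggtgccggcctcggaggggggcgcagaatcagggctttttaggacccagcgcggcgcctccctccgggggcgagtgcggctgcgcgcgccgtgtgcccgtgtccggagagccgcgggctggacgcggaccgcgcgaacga
Kcnd2: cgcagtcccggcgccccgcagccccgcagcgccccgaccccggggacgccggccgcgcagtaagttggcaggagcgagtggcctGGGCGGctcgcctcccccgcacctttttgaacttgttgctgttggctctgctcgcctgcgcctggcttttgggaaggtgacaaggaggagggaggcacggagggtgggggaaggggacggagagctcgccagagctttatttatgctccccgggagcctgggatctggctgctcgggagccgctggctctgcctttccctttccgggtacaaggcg

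Kcna6, a delayed rectifier subunit, separated one clone from the others. Its probe ILMN_2596385 read 6.64, 6.83 and 6.70 on the iNS2 arrays, 6.78, 6.98, 6.99 and 6.88 on iNS3 and 9.16, 9.43, 9.13 and 9.26 on iNS5. On the remaining lines it read 5.99, 6.27 and 6.001 on the NS arrays, 4.995, 4.65 and 4.70 on ES and 5.67, 5.83, 5.65 and 5.46 on MEF. Every iNS5 array exceeded every other array, and 3 of 4 MEF arrays were above background. The second probe, ILMN_2760927, read 5.78, 5.77 and 5.82 on the iNS2 arrays, 6.01, 6.18, 5.82 and 5.60 on iNS3 and 8.08, 8.23, 8.20 and 8.14 on iNS5, and was above background on 1 of 3 NS arrays and on no ES or MEF array. The first probe was 5.72-fold lower in iNS2 than in iNS5 (log2 difference -2.52 ± 0.10 SE, limma adjusted p = 2.24e-09) and 5.05-fold lower in iNS3 than in iNS5 (log2 difference -2.34 ± 0.10 SE, limma adjusted p = 3.26e-09). For the second probe the log2 differences of the same pairs were -2.38 and -2.26, both called. Against MEF the clones averaged 7.63 and MEF 5.65, and neither probe was called.

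Kcna2, a subunit of the axonal delayed rectifier, averaged 7.41 in iNS2, 7.25 in iNS3, 7.70 in iNS5, 8.18 in NS, 4.39 in ES and 4.57 in MEF. Kcna2 was at least 3.7-fold higher in clones than in MEF (log2 difference 2.89 ± 0.25 SE, limma adjusted p = 0.00267), and its NS arrays lay above all clone arrays. Kcnc4 averaged 7.48 in iNS2, 7.91 in iNS3, 7.99 in iNS5, 8.10 in NS, 6.55 in ES and 4.70 in MEF, so that it was above background in ES as well. Kcnc4 was at least 4.67-fold higher in clones (log2 difference 3.09 ± 0.28 SE, limma adjusted p = 0.00292) and at least 1.97-fold higher in ES (log2 difference 1.84 ± 0.12 SE, limma adjusted p = 1.38e-06) than in MEF.

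Kcnh2, the ERG channel known for repolarising the heart, had 2 member probes, and its probes ILMN_2642435 and ILMN_3048027 were above background on no array. The member probes were at least 2.85-fold higher (ILMN_1244402, log2 difference 2.44 ± 0.27 SE, limma adjusted p = 0.0049) and at least 2.49-fold higher (ILMN_3123864, log2 difference 1.99 ± 0.37 SE, limma adjusted p = 0.0173) in clones than in MEF. The difference of ILMN_3123864 was 1.93 without iNS2, where its call was lost. Kcnh3 averaged 4.49 in iNS2, 4.42 in iNS3, 4.55 in iNS5, 4.45 in NS, 6.30 in ES and 4.37 in MEF, above background on ES arrays alone. Kcnh6 averaged 5.57 in iNS2, 4.85 in iNS3, 5.10 in iNS5, 5.64 in NS, 5.995 in ES and 6.04 in MEF and was above background on every ES and MEF array and on some others. Kcnf1, a silent subunit that modifies Kcnb channels, averaged 5.50 in iNS2, 5.79 in iNS3, 5.99 in iNS5, 5.50 in NS, 4.63 in ES and 5.28 in MEF, and no comparison with MEF or NS was called for it.

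**Figure D2:**
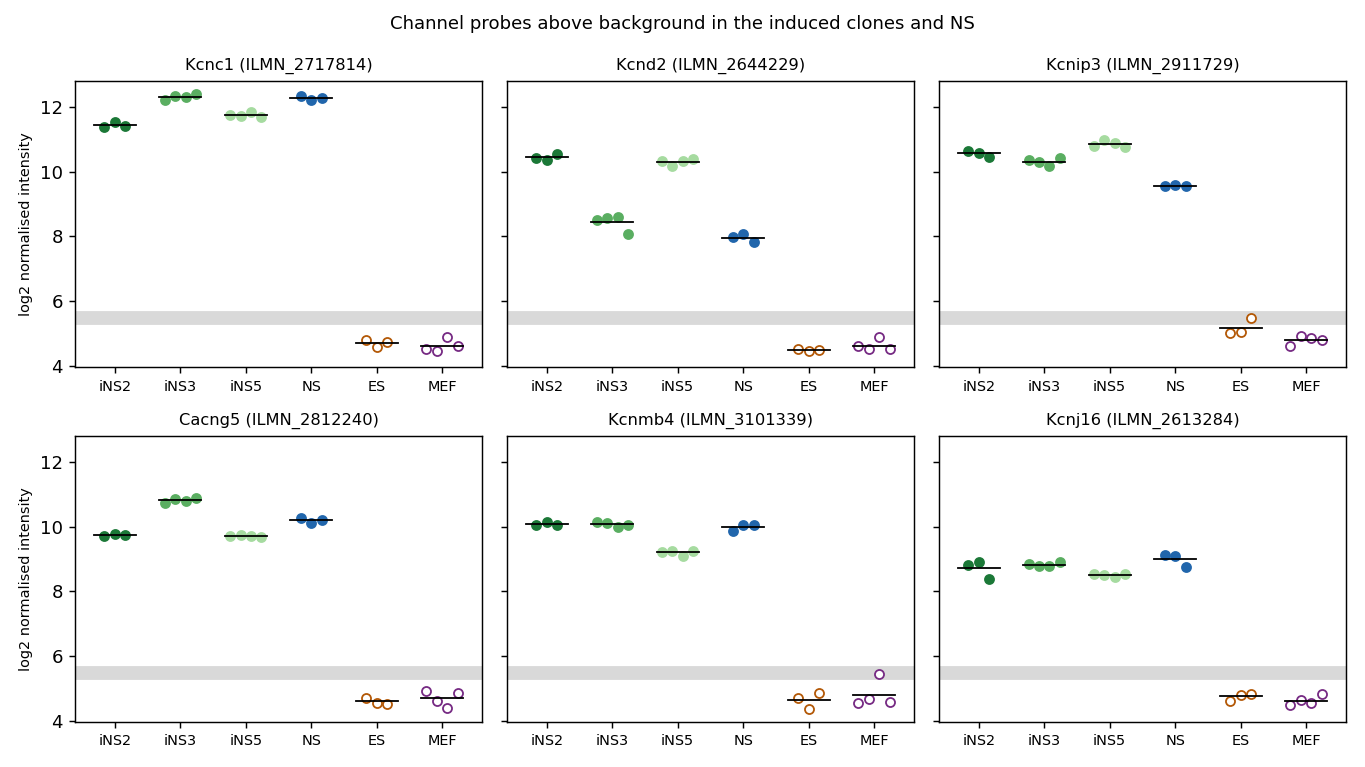
Log2 normalised intensity of 6 channel probes on each array, by line; filled points were above background on that array, open points were not, black bars are line means, and the grey band is the range of the dimmest detected probe per array. Every clone and NS point of these 6 probes is filled, and every ES and MEF point is open.

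Among the 7 probes of auxiliary subunits of Kv channels, 2 were called higher in clones than in MEF, against 22.4% of all probes. Another 4 were called lower, all 4 of which (Kcnab1 on 3 probes, and Kcne4) passed through MEF alone. Kcnab1 and Kcnab2 encode related beta subunits that attach to Kv channels inside the cell. The Kcnab1 probe ILMN_2915671 read 4.82, 4.61 and 4.90 on the iNS2 arrays, 4.41, 4.34, 4.40 and 4.37 on iNS3 and 5.17, 5.19, 5.32 and 5.16 on iNS5. It read 4.40, 4.35 and 4.33 on the NS arrays, 4.44, 4.42 and 4.60 on ES and 11.24, 11.31, 11.20 and 11.18 on MEF. The 4 MEF arrays stood alone, and no other array was above background. Kcnab1 was at least 57.2-fold lower in clones (log2 difference -6.44 ± 0.37 SE) and at least 56.4-fold lower in ES (log2 difference -6.75 ± 0.07 SE) than in MEF. Probe ILMN_1216469 read 4.43, 4.39 and 5.08 on the iNS2 arrays, 4.40, 4.66, 4.58 and 4.56 on iNS3 and 4.92, 4.95, 5.10 and 5.16 on iNS5. It read 4.72, 4.44 and 4.77 on the NS arrays, 4.84, 4.43 and 4.73 on ES and 9.94, 9.94, 10.05 and 10.01 on MEF. Again the MEF arrays alone were above background, and it was at least 24.1-fold lower in clones (log2 difference -5.25 ± 0.27 SE) and at least 23.8-fold lower in ES. The third probe, ILMN_2618169, was at least 1.46-fold lower in clones, where its log2 difference was -1.17 and, without iNS2, -1.26. The Kcnab1 probes ILMN_1234723 and ILMN_1254970 were above background on no array.

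Kcnab2 ran the other way and was above background on all 21 arrays. It read 9.95, 9.95 and 10.05 on the iNS2 arrays, 9.99, 9.94, 9.89 and 9.97 on iNS3 and 10.37, 10.31, 10.35 and 10.31 on iNS5. It read 8.85, 8.71 and 8.85 on the NS arrays, 7.13, 6.85 and 7.30 on ES and 7.08, 7.16, 7.02 and 6.74 on MEF. The clone arrays lay above the NS arrays, and these above the ES and MEF arrays, with no overlap. Kcnab2 was 8.52-fold higher in clones than in MEF (log2 difference 3.09 ± 0.24 SE, limma adjusted p = 0.00215) and 3.49-fold higher in NS than in MEF (log2 difference 1.81 ± 0.09 SE, limma adjusted p = 2.44e-07).

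Kcnip3, a calcium-binding partner of the Kcnd family also described as a transcriptional repressor, followed the neural pattern. It read 10.66, 10.58 and 10.47 on the iNS2 arrays, 10.35, 10.30, 10.18 and 10.44 on iNS3 and 10.79, 10.97, 10.88 and 10.76 on iNS5. On the other lines it read 9.55, 9.59 and 9.55 on the NS arrays, 5.02, 5.03 and 5.46 on ES and 4.61, 4.91, 4.86 and 4.80 on MEF. All clone arrays lay above the NS arrays, and no ES or MEF array was above background. Kcnip3 was at least 32.3-fold higher in clones (log2 difference 5.78 ± 0.27 SE, limma adjusted p = 0.000782) and at least 16-fold higher in NS (log2 difference 4.77 ± 0.10 SE, limma adjusted p = 1.58e-17) than in MEF.

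Kcne4, a single-pass subunit that inhibits several Kv channels, was seen in MEF. Its probe read 4.65, 4.62 and 4.55 on the iNS2 arrays, 4.82, 4.94, 4.65 and 4.56 on iNS3 and 4.71, 4.65, 4.58 and 4.60 on iNS5. It read 4.63, 4.42 and 4.54 on the NS arrays, 4.48, 4.74 and 4.40 on ES and 8.63, 8.60, 8.49 and 8.51 on MEF. All MEF arrays lay above background and all other arrays at background, so that Kcne4 was at least 8.97-fold lower in clones (log2 difference -3.90 ± 0.18 SE) and at least 8.84-fold lower in ES than in MEF. Kcne1l (now Kcne5), of the same family, averaged 4.80 in iNS2, 6.23 in iNS3, 4.82 in iNS5, 4.90 in NS, 4.63 in ES and 5.09 in MEF and was above background in iNS3 alone.

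The Kcne4 window, shown as the contrast to the neural genes, lies on the plus strand at chr1:78816661-78816960, with 52.7% G and C, 9 CpG pairs and no GC box. Capitals mark CAGCTG, an E-box, once, and GGACAG, 6 letters found in the binding element of the repressor REST, at 2 places. Among all windows, 16.3% held CAGCTG and 22.2% held GGACAG on either strand.
Kcne4: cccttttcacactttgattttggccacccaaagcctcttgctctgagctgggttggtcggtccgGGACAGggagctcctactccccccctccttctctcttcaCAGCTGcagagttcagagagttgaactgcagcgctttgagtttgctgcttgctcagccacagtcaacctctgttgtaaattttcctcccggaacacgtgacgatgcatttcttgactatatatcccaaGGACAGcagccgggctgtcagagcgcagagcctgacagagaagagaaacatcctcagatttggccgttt

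The inward rectifiers pass potassium near rest, and 4 genes met the detection rule with 1 probe each. Of these, 1 was called higher in clones than in MEF, against 22.4% of all probes, and 1, Kcnj15, which passed through MEF alone, lower. Kcnj16, a subunit that joins Kcnj10 in glia, read 8.82, 8.92 and 8.39 on the iNS2 arrays, 8.84, 8.78, 8.77 and 8.91 on iNS3 and 8.54, 8.51, 8.43 and 8.54 on iNS5. It read 9.12, 9.10 and 8.75 on the NS arrays, 4.62, 4.80 and 4.83 on ES and 4.48, 4.64, 4.54 and 4.81 on MEF. The clones and NS overlapped, and no ES or MEF array was above background. Kcnj16 was at least 8.66-fold higher in clones than in MEF (log2 difference 4.06 ± 0.21 SE, limma adjusted p = 0.000985). Kcnj15 averaged 4.44 in iNS2, 4.45 in iNS3, 4.53 in iNS5, 4.63 in NS, 4.40 in ES and 6.91 in MEF, above background on MEF arrays alone, and was at least 2.86-fold lower in clones than in MEF (log2 difference -2.44 ± 0.17 SE). The Kcnj15 probes ILMN_1215835, ILMN_1221782, ILMN_2725844 and ILMN_2725845 were above background on no array. Kcnj12, a strong rectifier of heart and brain, averaged 4.54 in iNS2, 4.74 in iNS3, 4.77 in iNS5, 4.67 in NS, 5.999 in ES and 4.50 in MEF, above background on ES arrays alone. Kcnj4, another strong rectifier, averaged 5.71 in iNS2, 5.91 in iNS3, 5.96 in iNS5, 5.79 in NS, 6.61 in ES and 5.82 in MEF, and it was called in no comparison.

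**Figure D3:**
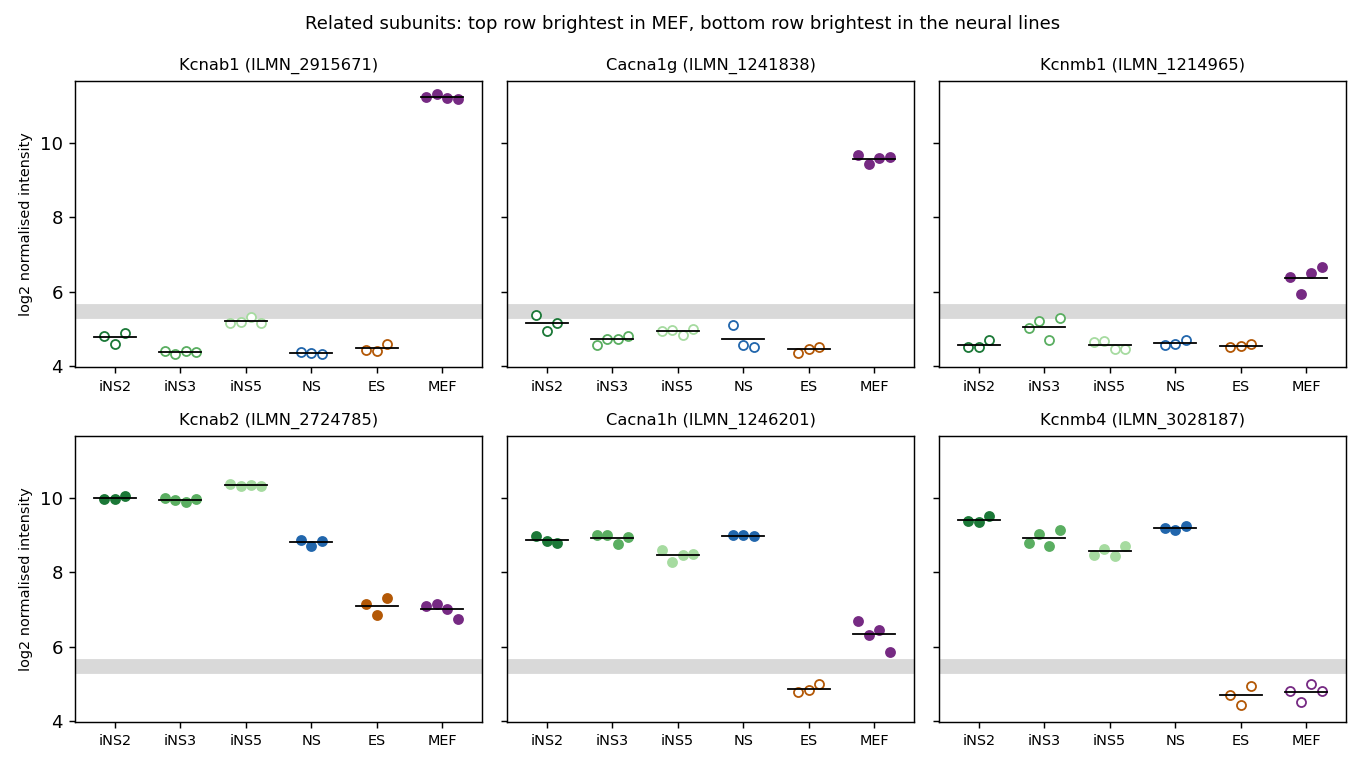
Log2 normalised intensity on each array for related subunits, with Kcnab1, Cacna1g and Kcnmb1 in the top row and their family members Kcnab2, Cacna1h and Kcnmb4 below; filled points were above background, open points were not, bars are line means and the grey band is the range of the dimmest detected probe. The top 3 probes are filled in MEF alone, and the bottom 3 are filled on all clone and NS arrays.

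The two-pore (K2P) channels carry the background leak that sets resting potential, and 4 genes with 7 probes met the detection rule. Kcnk6 ILMN_3049650 passed through ES alone, so the rule favoured a difference from ES. The other 6 probes were all called between ES and MEF, 5 higher and 1 lower, against 21.9% and 21.2% of all probes. Between NS and ES they were also all called, 1 higher and 5 lower, against 15.5% and 13.7%. Kcnk5, an acid-sensitive channel, read 7.24, 7.45 and 7.16 on the iNS2 arrays, 7.60, 7.49, 7.49 and 7.44 on iNS3 and 6.57, 6.76, 6.82 and 6.80 on iNS5 (probe ILMN_2982781). It read 7.60, 7.57 and 7.54 on the NS arrays, 9.57, 9.76 and 9.74 on ES and 4.47, 4.48, 4.95 and 4.69 on MEF. Every ES array lay above every clone and NS array, and these above MEF, where no array was above background. Kcnk5 was at least 17.5-fold higher in ES than in MEF (log2 difference 5.04 ± 0.10 SE, limma adjusted p = 5.03e-18), 4.36-fold lower in NS than in ES (log2 difference -2.12 ± 0.11 SE, limma adjusted p = 1.6e-08) and at least 3.05-fold higher in clones than in MEF (log2 difference 2.53 ± 0.36 SE, limma adjusted p = 0.00866). The second probe, ILMN_1232263, had log2 differences of 2.30 between ES and MEF and -1.43 between NS and ES. The NS against ES call was lost without NS replicate 1 (-1.29), NS replicate 3 (-1.46), ES replicate 2 (-1.41) or ES replicate 3 (-1.38), and with slide as a fixed or a random block.

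The Kcnk5 window is shown because ES was the line above all others; it lies on the minus strand at chr14:20181733-20182032, with 63.7% G and C, 26 CpG pairs and 3 copies of GGGCGG, in capitals. Across the 50 windows of the 32 matched genes, 25 held GGGCGG (50%), 14 CAGCTG (28%), 12 ACAAAG, the core read by Sox proteins (24%), 17 GGACAG (34%) and 3 TATAAA (6%). The shares of all windows for ACAAAG and TATAAA were 18.7% and 13.6%. Both strands were searched, and a match describes letters and is not evidence of binding.
Kcnk5: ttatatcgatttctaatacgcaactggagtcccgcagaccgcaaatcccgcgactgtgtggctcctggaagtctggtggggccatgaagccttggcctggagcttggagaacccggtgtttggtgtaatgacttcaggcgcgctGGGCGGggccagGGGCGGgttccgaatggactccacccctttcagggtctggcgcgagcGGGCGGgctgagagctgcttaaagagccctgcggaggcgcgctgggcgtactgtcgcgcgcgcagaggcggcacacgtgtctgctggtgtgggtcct

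Kcnk1, a weak leak channel, differed between clones as well as between lines. Its probe ILMN_3009501 read 5.94, 5.58 and 5.99 on the iNS2 arrays, 8.41, 8.37, 8.32 and 8.37 on iNS3 and 6.60, 6.46, 6.37 and 6.29 on iNS5. It read 7.89, 7.69 and 7.66 on the NS arrays, 9.23, 9.19 and 9.02 on ES and 4.57, 5.09, 4.73 and 4.76 on MEF. Among the neural lines iNS3 was highest, then NS, then iNS5 and iNS2, and no MEF array was above background. Probe ILMN_2777530 read 4.83, 4.93 and 5.19 on the iNS2 arrays, 7.002, 6.90, 6.98 and 6.91 on iNS3 and 5.21, 5.84, 5.44 and 5.33 on iNS5, and averaged 6.55 in NS, 8.02 in ES and 4.45 in MEF. Kcnk1 was at least 12-fold higher in ES than in MEF (log2 difference 4.36 ± 0.11 SE, limma adjusted p = 5.24e-16). Between clones the 2 probes were 5.77-fold lower and at least 2.91-fold lower in iNS2 than in iNS3 (log2 difference -2.53 ± 0.11 SE, limma adjusted p = 1.08e-08, and log2 difference -1.97 ± 0.12 SE, limma adjusted p = 1.76e-05).

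Kcnk6, another weak leak channel, was above background in ES on both of its member probes. Its probes ILMN_1232178 and ILMN_3125634 were above background on no array. Probe ILMN_1258376 read 8.15, 8.10 and 8.17 on the ES arrays and 5.78, 6.13, 6.62 and 5.99 on the MEF arrays, and no clone or NS array was above background. It was 4.02-fold higher in ES than in MEF (log2 difference 2.01 ± 0.13 SE, limma adjusted p = 4.82e-07), and at least 1.67-fold lower in clones than in MEF (log2 difference -1.66 ± 0.17 SE, limma adjusted p = 0.004). NS was at least 1.64-fold lower than MEF (log2 difference -1.57 ± 0.13 SE, limma adjusted p = 0.000565), and with slide as a fixed block that difference was -1.42 and not called. The second probe, ILMN_3049650, averaged 4.56 in iNS2, 4.74 in iNS3, 4.54 in iNS5, 4.58 in NS, 6.57 in ES and 4.99 in MEF and passed through ES alone. Kcnk2, opened by stretch and lipids, averaged 5.88 in iNS2, 6.84 in iNS3, 6.55 in iNS5, 6.44 in NS, 4.69 in ES and 6.50 in MEF. It was at least 2.12-fold lower in ES than in MEF (log2 difference -1.80 ± 0.16 SE, limma adjusted p = 0.000148), and with slide as a fixed block the difference was -1.60 and not called.

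**Figure D4:**
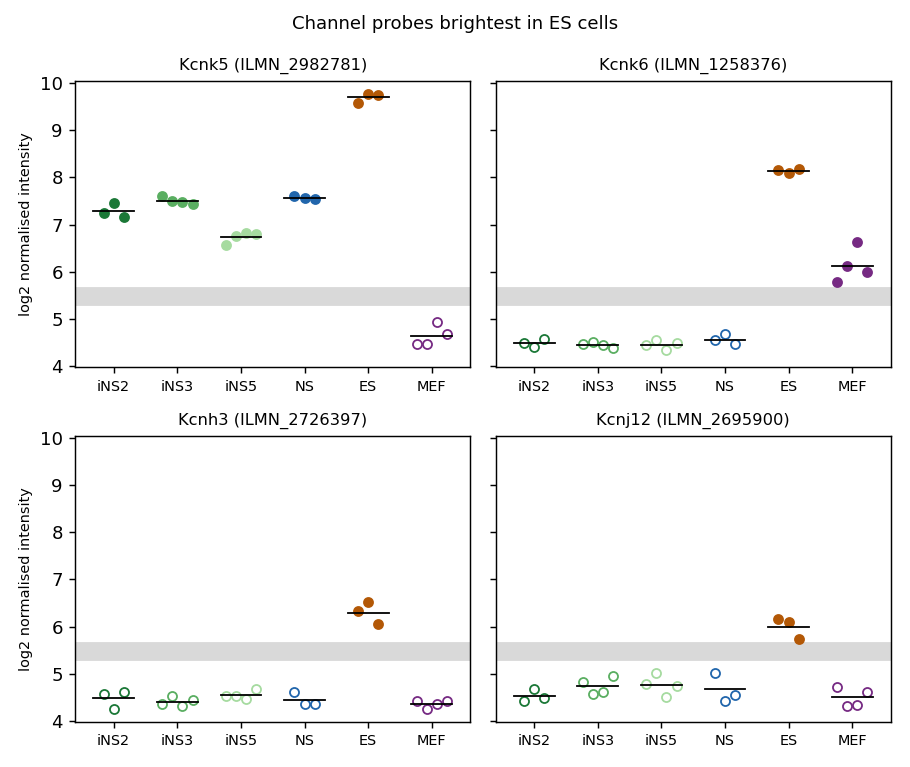
Log2 normalised intensity on each array of 4 channel probes with their highest level in ES; filled points were above background, open points were not, bars are line means and the grey band is the range of the dimmest detected probe. Kcnk5 is filled in every line except MEF, Kcnk6 in ES and MEF, and Kcnh3 and Kcnj12 in ES alone.

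Of the calcium-activated potassium channels and their relatives, 5 genes with 8 probes met the detection rule. Of these probes, 2 were called higher in clones than in MEF, against 22.4% of all probes, and 1, Kcnmb1, which passed through MEF alone, lower. Kcnmb4 encodes the beta subunit of the large-conductance (BK) channel best known from brain. Its probe ILMN_3101339 read 10.05, 10.16 and 10.04 on the iNS2 arrays, 10.13, 10.11, 10.001 and 10.04 on iNS3 and 9.22, 9.25, 9.10 and 9.26 on iNS5. It read 9.86, 10.04 and 10.04 on the NS arrays, 4.71, 4.36 and 4.85 on ES and 4.56, 4.65, 5.44 and 4.57 on MEF. All clone and NS arrays lay above all ES and MEF arrays, and iNS5 was the lowest of the 4 neural lines. The second probe, ILMN_3028187, read 9.38, 9.34 and 9.50 on the iNS2 arrays, 8.78, 9.01, 8.70 and 9.14 on iNS3 and 8.47, 8.63, 8.43 and 8.70 on iNS5, and read 9.18, 9.13 and 9.24 on the NS arrays, 4.72, 4.45 and 4.95 on ES and 4.81, 4.53, 4.99 and 4.82 on MEF. Kcnmb4 was at least 18.7-fold higher (ILMN_3101339, log2 difference 4.98 ± 0.43 SE, limma adjusted p = 0.00273) and at least 10.5-fold higher (ILMN_3028187, log2 difference 4.17 ± 0.38 SE, limma adjusted p = 0.00301) in clones than in MEF.

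Kcnmb1, the BK beta subunit of smooth muscle, read 6.40, 5.95, 6.52 and 6.65 on the MEF arrays and was above background on no array of another line. It was at least 1.98-fold lower in clones than in MEF, with a log2 difference of -1.65, or -1.57 without iNS2. Of 5 muscle markers, Acta2, Tagln, Myh11 and Acta1 were above background on every MEF array, and Acta2 alone on every array of iNS2, iNS3, iNS5 and NS. The mean level of that list lay between 9.20 and 9.27 on MEF arrays, and between 5.05 and 5.98 on clone and NS arrays. The part of such cells in the MEF levels of Kcnmb1, Kcnab1 and Cacna1g was not tested.

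Kcnma1, the BK pore itself, had 3 member probes that passed through iNS3, 2 of them also through iNS2. Probe ILMN_1244166 read 5.81, 5.79 and 5.65 on the iNS2 arrays, 6.72, 6.51, 6.68 and 6.56 on iNS3 and 5.34, 5.31, 5.07 and 5.01 on iNS5. It read 5.08, 5.05 and 5.22 on the NS arrays, 4.48, 4.31 and 4.52 on ES and 4.29, 4.39, 4.34 and 4.33 on MEF. All iNS3 arrays exceeded all others, and no NS, ES or MEF array was above background on any of the 3 probes. Probe ILMN_1244166 was at least 2.42-fold higher in iNS3 than in iNS5 (log2 difference 1.43 ± 0.08 SE, limma adjusted p = 0.000526). ILMN_1256814 averaged 6.002 in iNS2, 6.50 in iNS3, 5.61 in iNS5, 5.25 in NS, 4.69 in ES and 4.84 in MEF, and ILMN_2723799 averaged 5.04 in iNS2, 5.82 in iNS3, 5.08 in iNS5, 5.21 in NS, 4.66 in ES and 4.56 in MEF, with no call for either.

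Kcnn1, a small-conductance channel, averaged 5.22 in iNS2, 5.26 in iNS3, 5.78 in iNS5, 5.41 in NS, 6.33 in ES and 6.16 in MEF and was above background on all arrays of iNS5, ES and MEF. Kcnu1, a pH-sensitive channel best known from sperm, averaged 5.07 in iNS2, 5.57 in iNS3, 5.25 in iNS5, 4.53 in NS, 6.29 in ES and 4.55 in MEF. Kcnu1 was at least 1.65-fold higher in ES than in MEF (log2 difference 1.74 ± 0.18 SE, limma adjusted p = 0.000717), and with slide as a fixed block the difference was 1.61 and not called.

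The voltage-gated calcium channel (Cav) pores that met the detection rule were 3 genes with 4 probes, among them 2 low-threshold, T-type genes. Cacna1g (ILMN_1241838) read 5.37, 4.94 and 5.15 on the iNS2 arrays, 4.58, 4.74, 4.74 and 4.82 on iNS3 and 4.95, 4.96, 4.85 and 5.01 on iNS5. It read 5.10, 4.57 and 4.52 on the NS arrays, 4.35, 4.47 and 4.53 on ES and 9.67, 9.43, 9.58 and 9.62 on MEF. The MEF arrays stood alone above background. Cacna1g was at least 18.2-fold lower in clones (log2 difference -4.64 ± 0.24 SE) and at least 17.9-fold lower in ES (log2 difference -5.12 ± 0.12 SE) than in MEF, and its second probe, ILMN_1256998, at least 2.15-fold lower in clones. Both passed through MEF alone. The Cacna1g probes ILMN_1247014 and ILMN_1251322 were above background on no array.

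Cacna1h, the other T-type gene, read 8.98, 8.84 and 8.78 on the iNS2 arrays, 8.99, 9.01, 8.76 and 8.95 on iNS3 and 8.60, 8.28, 8.45 and 8.47 on iNS5. It read 8.99, 8.99 and 8.96 on the NS arrays, 4.77, 4.85 and 4.99 on ES and 6.70, 6.32, 6.44 and 5.87 on MEF. The clones and NS lay above MEF without overlap, and no ES array was above background. These are readings of ILMN_1246201, and the Cacna1h probes ILMN_2431088 and ILMN_2576053 were above background on no array. Cacna1h was 5.35-fold higher in clones than in MEF (log2 difference 2.42 ± 0.27 SE, limma adjusted p = 0.00478), 6.29-fold higher in NS than in MEF (log2 difference 2.65 ± 0.13 SE, limma adjusted p = 7.79e-10) and at least 1.89-fold lower in ES than in MEF (log2 difference -1.46 ± 0.13 SE, limma adjusted p = 0.00357). With slide as a fixed block, the ES difference was -0.79 and its call was lost. Cacna1a, the P/Q-type pore of synapses, averaged 4.95 in iNS2, 4.75 in iNS3, 4.78 in iNS5, 5.11 in NS, 6.04 in ES and 4.72 in MEF and passed through ES alone. Its ES against MEF log2 difference was 1.32.

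Of the alpha2delta and beta subunits, which bring Cav pores to the surface, 5 genes with 7 probes met the detection rule. Of these probes, 1 was called higher in clones than in MEF and 2 lower, against 22.4% and 21% of all probes. Of the 2 lower, Cacna2d3 passed through MEF alone. Probes of Cacna2d1, the target of gabapentin, disagreed. ILMN_2752030 averaged 8.28 in iNS2, 8.55 in iNS3, 8.46 in iNS5, 7.20 in NS, 5.41 in ES and 7.73 in MEF and was not called between the clones and MEF. ILMN_1215110 averaged 7.14 in iNS2, 6.98 in iNS3, 7.20 in iNS5, 6.17 in NS, 4.70 in ES and 6.06 in MEF and was 2.07-fold higher in clones than in MEF (log2 difference 1.05 ± 0.19 SE, limma adjusted p = 0.0169). ILMN_2568719 averaged 5.19 in iNS2, 5.21 in iNS3, 5.75 in iNS5, 5.51 in NS, 4.70 in ES and 6.67 in MEF and was at least 2.2-fold lower in clones (log2 difference -1.29 ± 0.31 SE, limma adjusted p = 0.0333). Without iNS2 the calls of ILMN_1215110 (1.03) and ILMN_2568719 (-1.19) were lost. All 3 probes were called lower in ES than in MEF, the largest at -2.32 (limma adjusted p = 1.65e-09), and 1 of them, ILMN_2752030, kept its call with slide as a fixed block.

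Cacna2d3 averaged 4.78 in iNS2, 5.40 in iNS3, 5.22 in iNS5, 4.78 in NS, 4.82 in ES and 6.45 in MEF and had a clones against MEF log2 difference of -1.31, -1.14 without iNS2 and -0.78 within slide 4. Cacnb1, the skeletal muscle beta subunit, averaged 5.05 in iNS2, 4.83 in iNS3, 5.13 in iNS5, 5.20 in NS, 6.05 in ES and 4.85 in MEF, above background on all arrays in ES alone. Cacnb2 averaged 5.50 in iNS2, 6.09 in iNS3, 4.97 in iNS5, 5.20 in NS, 4.46 in ES and 4.64 in MEF, above background on all arrays in iNS3 alone. Cacnb4, a brain beta subunit, averaged 6.11 in iNS2, 6.06 in iNS3, 5.61 in iNS5, 5.81 in NS, 5.57 in ES and 6.24 in MEF. None of these 3 beta probes was called in any comparison.

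The gamma subunits are also known as partners of AMPA-type glutamate receptors. Of 4 member probes of 3 genes, 3 were called higher in clones than in MEF and 0 lower, against 22.4% and 21% of all probes. Cacng5 (ILMN_2812240) read 9.71, 9.79 and 9.73 on the iNS2 arrays, 10.74, 10.86, 10.79 and 10.89 on iNS3 and 9.73, 9.73, 9.70 and 9.68 on iNS5. It read 10.28, 10.13 and 10.21 on the NS arrays, 4.71, 4.55 and 4.52 on ES and 4.92, 4.62, 4.38 and 4.87 on MEF. The iNS3 arrays were the highest, NS the next, and iNS2 and iNS5 overlapped, with ES and MEF at background. The second probe, ILMN_2725698, read 8.72, 8.84 and 8.73 on the iNS2 arrays, 9.91, 9.99, 9.87 and 9.9999 on iNS3 and 8.65, 8.71, 8.41 and 8.71 on iNS5, and read 9.45, 9.44 and 9.41 on the NS arrays, 4.42, 4.59 and 4.47 on ES and 4.48, 4.58, 4.37 and 4.49 on MEF. Cacng5 was at least 23-fold higher (ILMN_2812240, log2 difference 5.39 ± 0.53 SE, limma adjusted p = 0.00364) and at least 11.6-fold higher (ILMN_2725698, log2 difference 4.63 ± 0.60 SE, limma adjusted p = 0.00714) in clones than in MEF.

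Cacng4 averaged 6.84 in iNS2, 6.65 in iNS3, 7.42 in iNS5, 6.34 in NS, 4.71 in ES and 4.53 in MEF. The gene was at least 2.65-fold higher in clones than in MEF (log2 difference 2.44 ± 0.36 SE, limma adjusted p = 0.00962). Cacng7 averaged 5.09 in iNS2, 4.93 in iNS3, 5.75 in iNS5, 5.29 in NS, 4.68 in ES and 5.03 in MEF and was above background on all arrays of iNS5 alone. No member gamma probe was above background on any ES or MEF array.

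The clones were next set against NS, which asks how far the induced lines differed from the brain-derived one. NS, too, entered as 1 line assumed to vary like the clones. By limma's eBayes test with the clones as replicates 0 of 56 channel probes were called, against 0.0564% of all probes (0.0125% higher and 0.0438% lower), 6 had an unadjusted p under 0.05, and the test has 2 residual degrees of freedom. The largest differences were those of Kcnd2 ILMN_2644229 (log2 difference 1.77 ± 0.91 SE, limma adjusted p = 1), Kcna6 ILMN_2596385 (log2 difference 1.54 ± 1.13 SE, limma adjusted p = 1), Kcnd2 ILMN_2625435 (log2 difference 1.53 ± 0.75 SE), Kcna6 ILMN_2760927 (log2 difference 1.41 ± 1.08 SE) and Kcnab2 (log2 difference 1.29 ± 0.24 SE, limma adjusted p = 0.51). The clones themselves differed in Kcnd2 and Kcna6, and those 4 standard errors were each larger than that of Kcnab2. With arrays as replicates, which measures technical spread, the 2 Kcnd2 probes and Kcna6 ILMN_2596385 were called, against 1.63% of all probes. All 11 clone arrays had Kcnab2 above all 3 NS arrays.

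Between pairs of clones, a larger share of channel probes than of all probes was called by the 2-fold test. The calls fell on few genes, and some of these genes had 2 probes called. Between iNS2 and iNS3, 2 probes of 1 gene were called higher and 2 of 1 gene lower (7.14%, against 0.939% of all probes). Between iNS2 and iNS5, 0 were called higher and 2 of 1 gene lower (3.57%, against 1.6% of all probes, 0.482% higher and 1.12% lower). Between iNS3 and iNS5, 5 of 4 genes were called higher and 4 of 2 genes lower (16.1%, against 4.3% of all probes, 1.47% higher and 2.82% lower). The 5 higher calls include 1 of Kcnq1ot1, which is not a channel subunit. With 1 probe per gene, 2 of 40 were called between iNS2 and iNS3, against 0.948% of all genes. Between iNS2 and iNS5 it was 1 of 40, against 2.03%, and between iNS3 and iNS5 4 of 40, against 3.87%. The iNS2 arrays shared a slide with iNS3 and none with iNS5. Kcnd2 was 4.04-fold higher in iNS2 than in iNS3 (log2 difference 2.01 ± 0.11 SE, limma adjusted p = 4.51e-06) and 3.65-fold lower in iNS3 than in iNS5 (log2 difference -1.87 ± 0.10 SE, limma adjusted p = 3.72e-06). The log2 differences of its second probe were 1.67 and -1.48. Within slide 2 the 4 calls between iNS2 and iNS3, on both probes of Kcnd2 and of Kcnk1, were also made.

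Between iNS3 and iNS5 the remaining calls were those of Kcna6, Kcnk1, Kcnma1, Cacng5 and Kcnq1ot1. Kcnk1 had log2 differences of 1.93 and 1.49 on its 2 probes. Cacng5 ILMN_2725698 was 2.51-fold higher in iNS3 than in iNS5 (log2 difference 1.33 ± 0.07 SE, limma adjusted p = 0.00223), and ILMN_2812240, at 1.11, was not called. With slide as a fixed block 3 calls were made, against 2.02% of all probes, for both Kcna6 probes (-2.28 and -2.47) and Kcnd2 ILMN_2644229 (-2.23). Within slide 4, which holds 1 array each of iNS3 and iNS5, assumed to vary like the NS arrays, Kcna6 ILMN_2596385 (-2.28) and Kcnd2 ILMN_2644229 (-2.23) were called. There Kcnk1 ILMN_3009501 gave 1.77, Kcnma1 ILMN_1244166 1.23 and Cacng5 ILMN_2725698 1.35, with no call. With each array scaled to its median, 1 probe was called higher and 4 lower, against 4.57% of all probes.

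**Figure D5:**
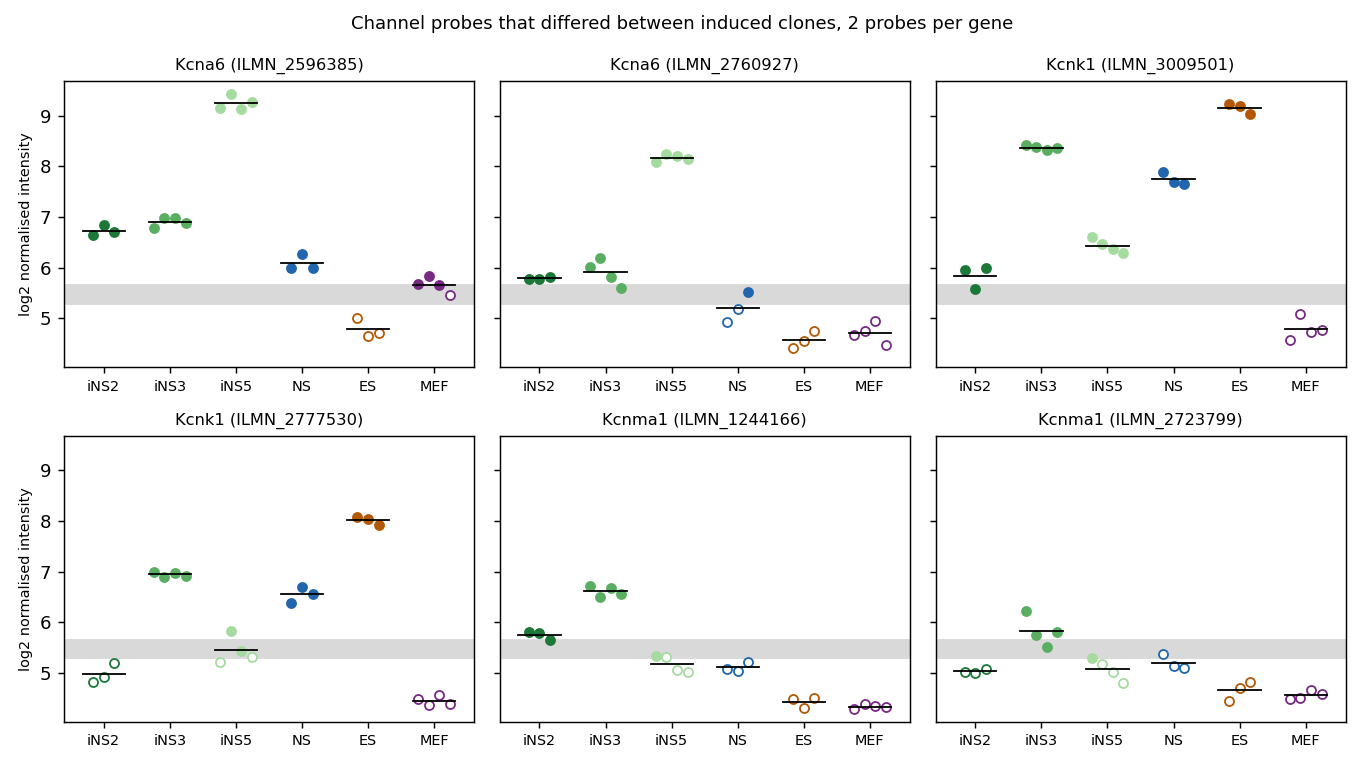
Log2 normalised intensity on each array of Kcna6, Kcnk1 and Kcnma1, with 2 probes per gene; filled points were above background, open points were not, bars are line means and the grey band is the range of the dimmest detected probe. Kcna6 is highest in iNS5 on both probes, Kcnk1 is higher in iNS3 than in the other clones, and the Kcnma1 means are highest in iNS3.

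The 2 members that are not channel subunits were above background on all 21 arrays. Kcnq1ot1, a noncoding RNA that silences imprinted neighbours of Kcnq1, averaged 7.05 in iNS2, 7.78 in iNS3, 6.39 in iNS5, 6.72 in NS, 7.47 in ES and 7.66 in MEF. It was 2.62-fold higher in iNS3 than in iNS5 (log2 difference 1.39 ± 0.10 SE, limma adjusted p = 0.018), a call lost without iNS3 replicate 3 (1.37), iNS3 replicate 4 (1.37), iNS5 replicate 2 (1.37) or iNS5 replicate 4 (1.34) and with slide as a fixed block, but not with slide as a random block. The Scnm1 probes averaged 8.93 in iNS2, 8.56 in iNS3, 8.95 in iNS5, 8.90 in NS, 9.49 in ES and 8.70 in MEF (ILMN_1227006) and 6.31 in iNS2, 6.32 in iNS3, 6.49 in iNS5, 6.38 in NS, 6.80 in ES and 6.11 in MEF (ILMN_2711714), with no call in any comparison.

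Proteins that anchor or regulate these channels showed both directions. Of 15 channel partners tested, 3 were called higher and 6 lower in clones than in MEF, against 23% and 22.6% of all genes, and 2 of the lower ones, Dlg2 and Rrad, passed the detection rule through MEF alone. Ank2, an ankyrin that anchors channels, was higher (log2 difference 2.96 ± 0.27 SE, limma adjusted p = 0.00315), and the ubiquitin ligase gene Nedd4l was lower (log2 difference -1.26, limma adjusted p = 0.0135). Ank3, the ankyrin of the axon initial segment, averaged 4.55 in iNS2, 4.81 in iNS3, 7.73 in iNS5, 6.47 in NS, 5.22 in ES and 7.76 in MEF. It was called lower in iNS2 than in iNS5 (log2 difference -3.19, limma adjusted p = 7.89e-15) and in iNS3 than in iNS5 (log2 difference -2.92, limma adjusted p = 1.65e-14).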

How the data were processed

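RNA of 6 lines was hybridised to 21 Illumina MouseWG-6 V2 arrays, which lay on 4 slides. The deposited scanner table holds a mean bead intensity per probe and array, background included, and a detection p-value against negative control beads, per the file headers. A second table of the authors holds intensity values that are a linear function of the scanner signal, with values below 0. Its scaling is not given in the sources used here, and it served as an alternative. The scanner intensities went through neqc of limma 3.58.1, which corrects background and normalises quantiles (R 4.3.3; offset 16, controls inferred from detection p-values), and were taken to log2.

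Probes with 1 symbol, detected at p under 0.01 on every array of at least 1 line, were tested, 15971 in all. Lines were compared in 1 fit of 21 arrays (15 residual degrees of freedom) with limma's treat against a 2-fold change. Clones were compared with MEF or NS on line means, with the 3 clones as replicates (2 residual degrees of freedom) and limma's eBayes against no change. The lone MEF or NS line was assumed to vary like the clones. P-values were adjusted by Benjamini-Hochberg over all tested probes, with calls under 0.05. For a probe that passed the detection rule through only one side of a comparison, the rule itself favoured a difference, and it is given without a p-value. Of 18 such probes between the clones and MEF, 9 were called. A fold against a line below background is "at least" that against the dimmest detected signal of each array. Scripts were tested on simulated data.

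The members and all gene lists were chosen with earlier results of these data known. Genes described array by array are those with the largest differences per comparison by a fixed rule. Probe names are the array design's, and levels of different probes were not compared. The number of arrays limits the precision.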

Additional observations from a re-analysis of the deposited data

Results flagged for a closer look

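On 3 arrays, a channel probe lay apart from the rest of its line by Dixon's test at the 95% level, which flags about 1 in 20 groups by chance and was run on 89 groups of 4 arrays. Kcnh2 ILMN_3123864 read 7.03 on iNS3 replicate 2, where the next array read 7.26. Kcnj4 read 5.56 on iNS3 replicate 1, where the next array read 6.004. Kcnk2 read 6.22 on MEF replicate 2, where the next array read 6.56. Each is a log2 level, and the 3 values fall on different probes.

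In 2 genes, NS and ES differed from MEF in opposite directions. Cacna1h was higher in NS and lower in ES than in MEF, and the NS against ES log2 difference was 4.11. Kcnk6 ILMN_1258376 was lower in NS and higher in ES than in MEF, and the NS against ES log2 difference was -3.57. Both NS against ES differences were tested directly and called by limma's treat, also with slide as a fixed block (3.91 and -3.56). With that block 1 of the differences from MEF lost its call in each gene, Cacna1h in ES (-0.79) and Kcnk6 in NS (-1.42).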

How the results depend on the processing

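No paired analysis was made, since the labels pair no arrays between lines. The labels give no replicate numbers, so those used here follow the order of the samples within each line. No call reversed in any alternative run. Among results and alternatives other than leaving out an array or clone, 1025 values for single probes stayed on their side of the threshold and 142 lost their call, and on leaving one out 685 stayed and 20 lost it. Leaving out 1 clone gave 22 to 33 channel probes called between the clones and MEF (20% to 46.6% of all probes), where 28 were called with all 3 (43.3%). Between the clones and NS it gave 0 to 0. Leaving out 1 array gave 27 to 28 calls between NS and MEF, 23 to 24 between ES and MEF, 24 to 25 between NS and ES, 4 to 4 between iNS2 and iNS3, 2 to 2 between iNS2 and iNS5 and 8 to 10 between iNS3 and iNS5. With arrays as replicates, 3 were called between the clones and NS, against 1.63% of all probes.

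Shares of all tested probes called in the same run are given in brackets. Without background correction, 7 were called between ES and MEF (25.3%) and 12 between NS and ES (15.6%). Between iNS2 and iNS3 there were 2 (0.413%), and between iNS3 and iNS5 there were 2 (1.42%). With an offset of 50, the counts were 11 (34.7%), 16 (23.1%), 2 (0.676%) and 5 (2.68%) for the same comparisons. Of NS against MEF calls, 14 were higher and 4 lower without background correction (18.4%) and 17 and 5 with the offset of 50 (25.6%). The main run gave 18 and 9 (32.2%). With each array scaled to its median, 5 were called between iNS3 and iNS5 (4.57%), 1 higher and 4 lower. With the authors' scaling the split was 8 higher and 4 lower (6.07%). Scaling each array to its median put the median log2 difference of all probes between the clones and MEF at 0.263. With 1 probe per gene, so that fewer probes were tested, 2 were called between iNS2 and iNS3 (0.948%), 1 between iNS2 and iNS5 (2.03%) and 4 between iNS3 and iNS5 (3.87%). With slide as a fixed block 3 were called between iNS3 and iNS5 (2.02%). Against no change rather than 2-fold, 45 were called between NS and MEF (79.9%) and 45 between NS and ES (78.4%). Between clones, 24 were called for iNS2 and iNS3 (36.5%), 28 for iNS2 and iNS5 (40.7%) and 34 for iNS3 and iNS5 (59.2%). Except for the number of probes tested, the cause was not tested. Probes near the dimmest detected signal have only a bound in lines where they were not above background.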

Other observations

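Among other ion channels, 33 genes were tested, 4 of which were called higher and 10 lower in the clones than in MEF by limma's eBayes test, against 23% and 22.6% of all genes. Of these calls Ryr3 passed the detection rule through the clones alone and Trpv2 through MEF alone. Unc79, part of the sodium leak channel complex, averaged 8.87 in iNS2, 8.84 in iNS3, 8.53 in iNS5, 8.25 in NS, 4.89 in ES and 4.84 in MEF. Stim2, a calcium sensor of the endoplasmic reticulum, gave a log2 difference of 2.19 ± 0.22 (SE, limma adjusted p = 0.00398). Among the lower genes, the stretch-opened channel gene Piezo1 gave -3.72 ± 0.43 (SE, limma adjusted p = 0.00516), and P2rx4, an ATP-gated channel gene, gave -3.67 ± 0.24 (SE, limma adjusted p = 0.00152).

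Among 13 pumps and ion carriers tested, 2 were called higher and 3 lower in the clones than in MEF (15.4% and 23.1%), against 23% and 22.6% of all genes. Atp1b2, a beta subunit of the sodium pump known from glia, averaged 9.82 in iNS2, 10.22 in iNS3, 10.45 in iNS5, 10.36 in NS, 6.91 in ES and 4.51 in MEF. Slc8a1, a sodium-calcium exchanger, gave a log2 difference of -2.28 ± 0.23 (SE, limma adjusted p = 0.00395). Slc24a3, a potassium-dependent exchanger, averaged 6.53 in iNS2, 9.63 in iNS3, 8.10 in iNS5, 7.54 in NS, 4.63 in ES and 9.10 in MEF. Atp2a3, a calcium pump, averaged 10.03 in ES and 4.82 in MEF, and it was above background on no array of the other lines. In none of these lists was a gene called between the clones and NS.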
